A study of Homo sapiens with 24 samples.

Results

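The 7 genes described here are GDF15, STC1, STC2, NUPR1, VLDLR, CEBPG and JDP2, which are usually placed downstream of the transcription factors ATF4 and CHOP (CHOP is the product of DDIT3). They were picked by symbol from the 34229 gene symbols that the deposited expression sheets list, and each of the 7 was listed in all 8 sheets. The measurements are RNA-seq of 24 libraries from the human glioma cell lines 1321N1, given as grade II, and LN18, given as grade IV. Each line had 4 groups of 3 libraries, which were a vehicle control, epigallocatechin-3-gallate (EGCG, the main catechin of green tea), hydroxychavicol (HC, a phenol of betel leaf) and both together (EGCG+HC), all harvested at 24 h. For these lines the study used EGCG at 50 µg/ml and HC at 20 µg/ml in 1321N1 or 10 µg/ml in LN18, singly and combined, without stating doses separately for the sequenced cultures. The vehicle control held ethanol, HC was dissolved in ethanol and EGCG in medium, and LN18 was grown in less serum than 1321N1. Each grade is thus represented by 1 established line, so that line, grade, HC dose and serum cannot be told apart. The 3 libraries of a group are described as independent tests of the same line.

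ATF4 is the transcription factor made when stress kinases phosphorylate the initiation factor eIF2, a pathway called the integrated stress response. ATF4 binds DNA as a dimer with C/EBP proteins and switches on DDIT3, whose product CHOP is itself a C/EBP-family factor, and the combined programme covers amino acid supply, feedback on translation, secreted hormones and death receptors. Among the 7 genes, CEBPG encodes a C/EBP protein that pairs with ATF4, JDP2 encodes a Jun dimerization protein that represses AP-1 and ATF sites, and NUPR1 encodes a small chromatin-associated stress protein. GDF15 encodes a secreted hormone of the TGF-beta family that acts in the brainstem through its receptor GFRAL, STC1 and STC2 encode the secreted glycoproteins stanniocalcin 1 and 2, and VLDLR encodes a cell surface receptor for lipoproteins and reelin.

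The element through which ATF4 and C/EBP dimers bind is the C/EBP-ATF response element, and start-site sequence is shown here for the members that hold it. RefSeq promoter windows (GRCh38.p14, 250 bases before to 50 after a start site) were found for 5 of the 7 genes, 8 windows in all. The letters TGATGNAA, read on both strands, occurred in 2 of these 8 windows and in 3.62% of all 35116 windows. One lies 16 to 9 bases before a JDP2 start and one 42 to 35 bases before a CEBPG start, both on the strand of the gene. The 100 bases before each of these starts, read 5′ to 3′ on the plus strand with the element in capitals, matched GRCh37 at chr14:75894625-75894724 for JDP2 and at chr19:33864919-33865018 for CEBPG, inside the annotated limits of each gene and in no annotated exon.
JDP2: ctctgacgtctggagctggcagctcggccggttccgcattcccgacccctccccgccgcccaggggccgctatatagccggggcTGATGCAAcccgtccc
CEBPG: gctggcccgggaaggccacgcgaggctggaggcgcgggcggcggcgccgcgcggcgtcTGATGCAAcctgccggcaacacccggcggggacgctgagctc
The other letters searched in the same way occurred in 0 of the 8 windows. These were the cyclic AMP element TGACGTCA (1.85% of all windows), the AP-1 element TGANTCA (7.71%), the unfolded protein response element TGACGTGG (0.729%) and the hypoxia element core ACGTG (21.4%). A match is a run of letters, and binding was not measured.

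The deposited values are RPKM, reads per kilobase of transcript scaled to the library's mapped reads. They are relative to the library, so that a change in the amount of RNA per cell cannot be told apart from one in the other genes. The size of 1 read could be recovered for 22 libraries, which held 13.9 to 32.4 M counted reads (median 19.7 M). It could not be recovered for EGCG replicates 2 and 3 of 1321N1. Mitochondrial genes took 10.9% to 12.0% of summed RPKM in 1321N1 control libraries and 7.10% to 7.97% in its EGCG+HC libraries, but 5.96% to 6.53% in LN18 controls and 8.82% to 9.27% with EGCG+HC. Of the glial markers, GFAP stayed between 0.074 and 0.352 RPKM in all 24 libraries, so that the defining astrocyte marker was nearly absent, whereas VIM was between 170 and 1038 RPKM and CD44 between 40.4 and 162 RPKM. Blood markers (4 of 6 listed) summed to at most 0.488 RPKM in control libraries and to between 3.13 and 4.17 RPKM in EGCG+HC libraries. Epithelial markers (6 of 6 listed) summed to between 12.0 and 12.5 RPKM in 1321N1 controls and between 25.9 and 29.6 with EGCG+HC, but to between 135 and 144 in LN18 controls and between 57.5 and 59.7 with EGCG+HC. Glial and neural stem markers (8 of 10 listed) summed to between 1010 and 1100 RPKM in 1321N1 controls, 417 and 430 with HC and 596 and 623 with EGCG+HC, and to between 418 and 439 in LN18 controls and 257 and 260 with EGCG+HC. Neuronal markers (6 of 6 listed) summed to between 1.99 and 2.34 RPKM in 1321N1 controls and between 3.46 and 3.71 with EGCG+HC, and to between 0.872 and 1.48 in LN18 controls, 3.48 and 4.65 with HC and 1.34 and 1.99 with EGCG+HC. Endothelial markers (3 of 4 listed) summed to at most 0.391 RPKM in any library. The part of these 5 lists in the results was not tested. Genes that averaged 1 RPKM or more in the libraries compared were tested with limma on log2(RPKM + 1). A gene was called at a Benjamini-Hochberg adjusted p of 0.05 or less together with a change of 1.5-fold or more, and fold changes are on that scale unless a ratio of mean RPKM is named.

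The regulators themselves rose in every treated group. In 1321N1 the mean RPKM of ATF4 (±SD, n = 3) was 71.3±1.41 in vehicle, and EGCG, HC and EGCG+HC brought it to 132±8.12, 240.5±5.94 and 215±7.04. In LN18 the ATF4 means were 139±9.30, 241±2.57, 226±11.9 and 399±5.18 RPKM in the same order. For DDIT3 the 1321N1 means were 4.07±0.379, 8.13±1.43, 102±3.47 and 79.5±1.29 RPKM, again in that order. The LN18 means of DDIT3 were 11.5±0.828, 20.1±0.811, 29.9±3.94 and 127±2.94 RPKM. The level of DDIT3 was therefore highest with HC in 1321N1 and with EGCG+HC in LN18.

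**Figure D1:**
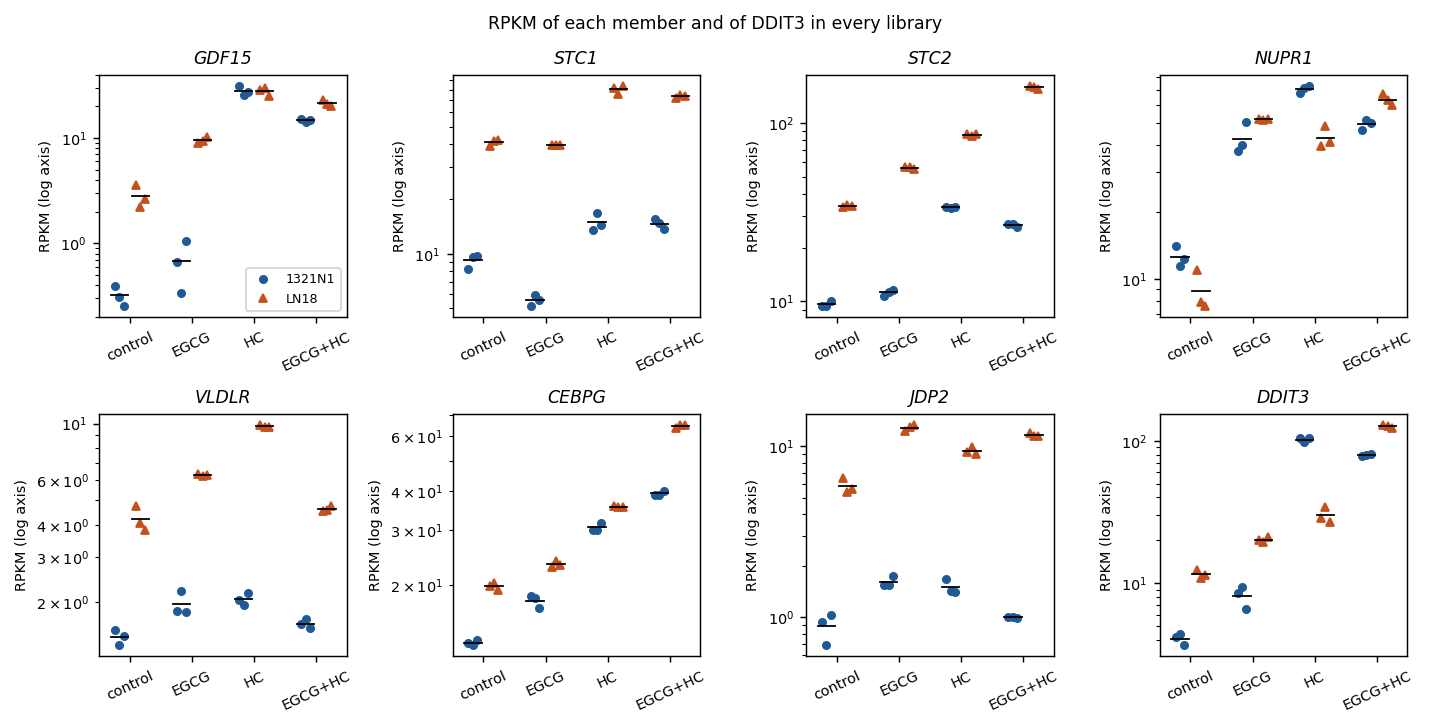
RPKM (log axis) of each of the 7 genes and of DDIT3 in the 24 libraries, by treatment. Points are single libraries (circles 1321N1, triangles LN18) and black lines are group means of 3. GDF15 rises from about 0.3 RPKM in 1321N1 controls to 25.6 RPKM or more with HC, while VLDLR with EGCG+HC overlaps its control in LN18.

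CEBPG, at chr19:33864591-33873592 (GRCh37, plus strand), rose in the same order of treatments in both lines. In 1321N1 its RPKM in replicates 1, 2 and 3 was 13.02, 12.8 and 13.3 in control, 18.4, 18.1 and 16.9 with EGCG, 30.1, 30.0 and 31.5 with HC, and 38.8, 38.9 and 39.9 with EGCG+HC. In LN18 it was 19.8, 20.3 and 19.3 in control, 22.8, 23.9 and 23.1 with EGCG, 35.8, 35.5 and 35.5 with HC, and 63.8, 64.9 and 65.0 with EGCG+HC. None of the 8 groups overlapped its neighbour in the order of means, and the order from control through EGCG and HC to EGCG+HC was shared by the lines. CEBPG rose by a log2 fold change of 1.17±0.04 (SE) with HC and 1.52±0.03 with EGCG+HC in 1321N1, and by 0.82±0.04 and 1.66±0.03 in LN18 (limma, adjusted p 2.48e-07, 6.52e-08, 6.81e-06 and 2.88e-08). The steps with EGCG alone, 0.42 (adjusted p 0.00137) and 0.22 (adjusted p 0.000608), did not reach 1.5-fold.

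NUPR1 rose with every treatment in both lines, and it was the member that responded most to EGCG alone. In 1321N1 the libraries held 14.05, 11.4 and 12.3 RPKM in control, 37.6, 39.7 and 50.4 with EGCG, 68.0, 71.4 and 73.4 with HC, and 46.6, 51.5 and 49.95 with EGCG+HC. In LN18 they held 11.1, 7.90 and 7.59 RPKM in control, 52.0, 51.6 and 52.0 with EGCG, 39.3, 48.6 and 41.0 with HC, and 67.3, 63.5 and 59.8 with EGCG+HC. All treated libraries lay above all control libraries, with the highest group HC in 1321N1 and EGCG+HC in LN18. The EGCG response was 1.67±0.12 on the log2 scale in 1321N1 (adjusted p 0.000445) and 2.44±0.12 in LN18 (adjusted p 5.77e-06), or 3.38 and 5.86 times the control mean. With HC it was 2.41±0.07 and 2.17±0.14, and with EGCG+HC 1.89±0.08 and 2.73±0.13 (limma, adjusted p 1.9e-07, 2.51e-05, 5.68e-07 and 8.7e-07). NUPR1 lies at chr16:28544029-28550329 (GRCh37, minus strand), where a long non-coding gene of the same strand, ENSG00000289754, overlaps its exons and is not listed under this name, so that reads of the pair cannot be told apart.

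JDP2, at chr14:75894419-75940814 (GRCh37, plus strand), was low in 1321N1 and several times higher in LN18. In 1321N1 it stood at 0.941, 0.685 and 1.03 RPKM in control, 1.55, 1.55 and 1.75 with EGCG, 1.67, 1.42 and 1.41 with HC, and 1.01, 1.01 and 0.996 with EGCG+HC. In LN18 it stood at 6.52, 5.37 and 5.66 RPKM in control, 12.4, 12.9 and 13.4 with EGCG, 9.25, 9.95 and 9.04 with HC, and 12.0, 11.5 and 11.5 with EGCG+HC. In LN18 every treated library exceeded every control, and EGCG gave the highest level; in 1321N1 the EGCG+HC libraries lay within the control range. In LN18 EGCG, HC and EGCG+HC raised JDP2 by 1.02±0.07, 0.61±0.07 and 0.89±0.06 (limma, adjusted p 1.56e-05, 0.000386 and 9.32e-06). The HC call was close to the 1.5-fold limit, and the value was 0.56 without control replicate 2 and 0.57 without HC replicate 2, both below the limit. In 1321N1 the changes of 0.48 with EGCG and 0.41 with HC were under 1.5-fold on this scale (adjusted p 0.0112 and 0.0059), although the means were 1.83 and 1.69 times control, and with a pseudocount of 0.1 RPKM both passed (0.81 and 0.71). JDP2 averaged 0.885 RPKM in these controls and passed the filter only through the treated libraries, where it was higher. These 1321N1 values are thus no support for a rise. The comparison of EGCG+HC with control was not tested in 1321N1, since the mean was below 1 RPKM. An exon of JDP2 overlaps one of JDP2-AS1 on the opposite strand, which is not listed under this name, and without strand the reads of the pair cannot be told apart.

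GDF15, at chr19:18485541-18499986 (GRCh37, plus strand), had the largest fold changes of the 7 genes with HC and with EGCG+HC in 1321N1. In 1321N1 the libraries held 0.398, 0.313 and 0.254 RPKM in control, 0.662, 0.341 and 1.05 with EGCG, 31.5, 25.6 and 27.3 with HC, and 15.1, 14.3 and 14.7 with EGCG+HC. In LN18 they held 3.59, 2.22 and 2.65 RPKM in control, 9.07, 9.33 and 10.1 with EGCG, 28.7, 29.9 and 25.03 with HC, and 23.0, 21.1 and 20.02 with EGCG+HC. The 2 lines started apart and met at the same level with HC, where their libraries overlapped. The 1321N1 control values rest on about 8.2, 6.4 and 5.9 reads, so that the ratios to them are imprecise. GDF15 averaged 0.322 RPKM in these controls. With HC and with EGCG+HC it passed the filter in 1321N1 only through the treated libraries, where it was higher. Its calls there are thus no support for a rise, and the levels above describe it. The HC mean was 87.4 times control in 1321N1 and 9.88 times control in LN18, and the log2 fold changes were 4.46±0.08 and 2.93±0.13 (limma, adjusted p 3.26e-08 and 6.17e-06). With EGCG+HC they were 3.57±0.06 and 2.56±0.13 (adjusted p 2.11e-08 and 1.16e-06). With EGCG alone GDF15 rose in LN18 by 1.47±0.12 (adjusted p 5.08e-05), whereas in 1321N1 its mean was below 1 RPKM, the ranges overlapped and no test was made. With a pseudocount of 0.1 RPKM the 1321N1 values were 6.07 with HC and 5.15 with EGCG+HC.

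STC1, at chr8:23699442-23712319 (GRCh37, minus strand), was raised by HC and by EGCG+HC but not by EGCG. In 1321N1 it stood at 8.26, 9.64 and 9.66 RPKM in control, 5.15, 5.95 and 5.53 with EGCG, 13.4, 16.8 and 14.5 with HC, and 15.5, 14.8 and 13.6 with EGCG+HC. In LN18 it stood at 39.0, 41.8 and 42.4 RPKM in control, 39.7, 39.7 and 39.9 with EGCG, 82.3, 76.0 and 84.4 with HC, and 72.4, 74.5 and 74.3 with EGCG+HC. EGCG lowered STC1 in 1321N1, where no EGCG library reached the lowest control, and left it inside the control range in LN18. The EGCG change was -0.64±0.08 in 1321N1 (adjusted p 0.0019) and -0.04 in LN18 (95% interval -0.13 to 0.04, adjusted p 0.293). In LN18 STC1 rose by 0.96±0.05 with HC and 0.83±0.04 with EGCG+HC (limma, adjusted p 1.62e-05 and 7.25e-07). In 1321N1 the rises of 0.64±0.09 and 0.62±0.07 (adjusted p 0.000432 and 0.000131) sat just above the 1.5-fold limit. They fell below it without control replicate 1 (0.57 and 0.55), the first also without HC replicate 2 (0.56), the second without EGCG+HC replicate 1 (0.58), and both after rescaling without mitochondrial genes (0.56 and 0.55).

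STC2, at chr5:172741726-172755450 (GRCh37, minus strand), rose with HC and with EGCG+HC in both lines, to its highest level in the LN18 combination. In 1321N1 it stood at 9.43, 9.41 and 10.0 RPKM in control, 10.8, 11.3 and 11.6 with EGCG, 33.8, 33.4 and 33.7 with HC, and 27.0, 27.3 and 26.2 with EGCG+HC. In LN18 it stood at 33.5, 34.7 and 34.4 RPKM in control, 56.3, 56.3 and 54.9 with EGCG, 86.9, 83.9 and 86.3 with HC, and 162, 158 and 155 with EGCG+HC. Within each line none of the 4 groups overlapped, and HC alone was the highest group only in 1321N1. The LN18 control libraries overlapped the HC-treated libraries of 1321N1. With HC the log2 fold changes were 1.71±0.04 in 1321N1 and 1.30±0.04 in LN18, and with EGCG+HC 1.39±0.04 and 2.18±0.03 (limma, adjusted p 6.65e-08, 3.15e-06, 1.37e-07 and 1.74e-08). EGCG raised STC2 in LN18 by 0.69±0.03 (adjusted p 1.95e-06) and the 1321N1 value was 0.20 (adjusted p 0.0167), under the limit.

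VLDLR was called with HC in LN18 and was not called with the combination in either line. In 1321N1 it stood at 1.55, 1.35 and 1.47 RPKM in control, 1.84, 2.21 and 1.83 with EGCG, 2.05, 1.94 and 2.17 with HC, and 1.64, 1.71 and 1.59 with EGCG+HC. In LN18 it stood at 4.77, 4.08 and 3.84 RPKM in control, 6.37, 6.25 and 6.31 with EGCG, 9.89, 9.71 and 9.67 with HC, and 4.56, 4.57 and 4.77 with EGCG+HC. In LN18 both single treatments lay above every control library, whereas the EGCG+HC libraries overlapped the control range. In 1321N1 every treated library exceeded every control. The changes there with EGCG and with HC, 0.27 and 0.31 (limma, adjusted p 0.039 and 0.00387), were under 1.5-fold. HC raised VLDLR in LN18 by 1.04±0.07 (limma, adjusted p 3.03e-05), and the EGCG step of 0.49 there (adjusted p 0.000533) did not reach 1.5-fold. With EGCG+HC the change was 0.11 in each line, with 95% intervals of -0.04 to 0.25 in 1321N1 and -0.05 to 0.28 in LN18 (adjusted p 0.141 and 0.172). VLDLR lies at chr9:2621182-2660056 (GRCh37, plus strand) and its exons overlap those of VLDLR-AS1 and ENSG00000286670 on the opposite strand, which are not listed under these names. The libraries did not keep strand, so the reads of these genes cannot be told apart.

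Counted over the 7 genes, HC alone and EGCG+HC called more members than EGCG alone. With EGCG in 1321N1 1 member was higher (3.14% of all tested genes were) and 1 was lower (1.83%), of 6 tested. With EGCG in LN18 4 of 7 were higher (9.11% of all genes). With HC 5 of 7 were higher in 1321N1 (18.8%) and 7 of 7 in LN18 (9.48%), and with EGCG+HC 5 of 6 tested in 1321N1 (23.1%) and 6 of 7 in LN18 (24.1%). No member was lower in these 4 comparisons. Both counts of 5 in 1321N1 include GDF15, which passed the filter there only through the treated libraries, where it was higher. Without it STC1, STC2, NUPR1 and CEBPG remain in each. The members' median log2 fold change was 1.17 with HC and 1.46 with EGCG+HC in 1321N1, where the medians of all tested genes were -0.02 and -0.01. In LN18 the members' medians were 1.04 and 1.66, beside 0.10 and 0.01 for all tested genes. With EGCG they were 0.34 in 1321N1 (0.10 for all genes) and 0.69 in LN18 (0.03). Comparisons within a line share their control libraries.

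**Figure D2:**
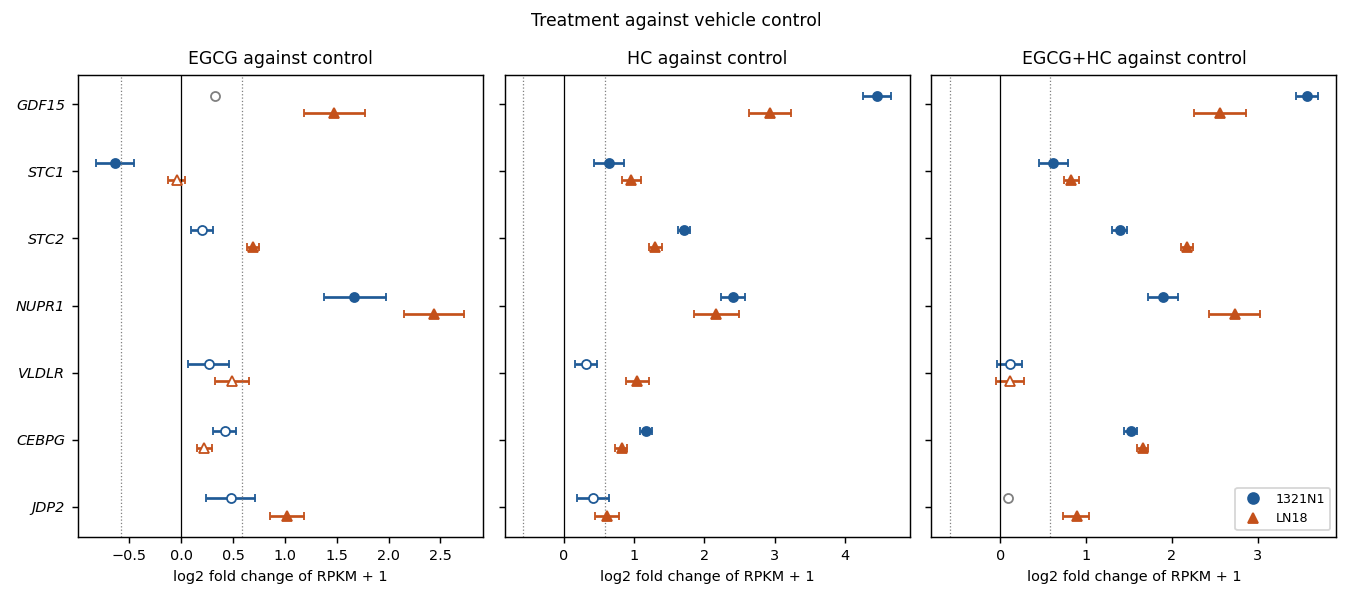
Log2 fold change of RPKM + 1 against vehicle control for the 7 genes, by treatment, with 95% intervals (circles 1321N1, triangles LN18). Filled points passed the call, open coloured points did not, open grey points were not tested, and dotted lines mark 1.5-fold. In the EGCG+HC panel VLDLR lies at 0.11 in both lines while NUPR1 reaches 2.73 in LN18.

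Set against HC alone, EGCG+HC gave 1 called member in 1321N1 and calls in both directions in LN18, where all tested genes also went both ways. With 7 members these counts are near the shares of all genes, so no trait of the members is drawn from them. In 1321N1 GDF15 was lower with EGCG+HC than with HC, by -0.89±0.07 (adjusted p 4.95e-05), and it was the 1 member called of 7 (7.23% of all genes were lower). NUPR1 (-0.51), STC2 (-0.32), VLDLR (-0.21), JDP2 (-0.32) and CEBPG (0.35) differed by less than 1.5-fold with adjusted p between 4.45e-05 and 0.014, and STC1 by -0.02 (adjusted p 0.804). In LN18 2 members were higher with EGCG+HC than with HC, STC2 by 0.88±0.03 and CEBPG by 0.84±0.03 (19.5% of all genes were higher; adjusted p 4.08e-07 and 2.81e-07). VLDLR was lower by -0.93±0.04 (25.9% were lower; adjusted p 6.91e-07). NUPR1, 1.48 times its HC mean, was at 0.56 (adjusted p 0.000446), just under the limit, and passed it without HC replicate 2 (0.65) or EGCG+HC replicate 3 (0.60). GDF15 (-0.37) and JDP2 (0.28) were not called.

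Adding HC to EGCG gave higher calls for the same 4 genes in each line, namely GDF15, STC1, STC2 and CEBPG. GDF15 averaged 0.685 RPKM with EGCG in 1321N1 and passed the filter there only through the libraries with HC, where it was higher. Its 1321N1 calls against EGCG are thus no support for a rise, and STC1, STC2 and CEBPG remain as the shared genes. The log2 fold changes of EGCG+HC against EGCG were 3.24, 1.25, 1.19 and 1.10 in 1321N1 (4 of 7 higher, against 19.1% of all genes) and 1.09, 0.87, 1.49 and 1.43 in LN18 (4 of 7, against 19.5%), with adjusted p of 5.1e-06 or less. NUPR1 moved by 0.22 in 1321N1 (adjusted p 0.105) and 0.29 in LN18 (adjusted p 0.000442), JDP2 by -0.38 and -0.13, and VLDLR by -0.16 and -0.38, none of them called. The JDP2 value of 1321N1 passed the limit with a pseudocount of 0.1 RPKM (-0.63) and after quantile normalization (-0.59). Set directly against EGCG, HC gave higher calls for the same 4 genes in both lines, with the same limit on GDF15 in 1321N1. The log2 fold changes were 4.13, 1.28, 1.5 and 0.75 in 1321N1, where NUPR1 was also higher by 0.73 (5 of 7, against 15.4% of all genes). In LN18 they were 1.45, 1.0, 0.61 and 0.59 (4 of 7, against 16.0%). The LN18 value for CEBPG fell to 0.58, below the limit, without EGCG replicate 1. NUPR1 in LN18 was -0.27 and JDP2 -0.42 (adjusted p 0.0139 and 0.000209), both under 1.5-fold. VLDLR there was higher with HC by 0.56, just under the limit, and passed it with pseudocounts of 0.1 (0.62) and 0.5 (0.59) and without mitochondrial genes (0.62). EGCG at 50 µg/ml and HC at 20 or 10 µg/ml are different compounds at different doses, so these are differences between the treatments as given.

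**Figure D3:**
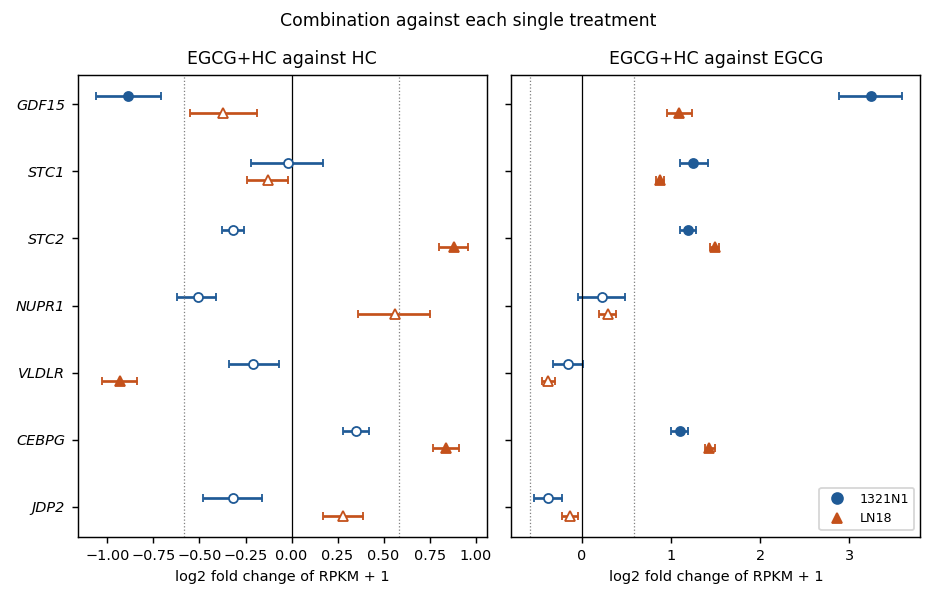
Log2 fold change of RPKM + 1 for EGCG+HC against HC alone and against EGCG alone, with 95% intervals (circles 1321N1, triangles LN18; filled points passed the call, dotted lines mark 1.5-fold). Against HC, VLDLR lies at -0.93 and STC2 at 0.88 in LN18, and GDF15 at -0.89 in 1321N1.

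The EGCG by HC interaction asked whether the combination differed from the sum of the single responses on the log2 scale. NUPR1 fell short of that sum in both lines, and GDF15 and JDP2 did in LN18. JDP2 in LN18 was at -0.55, below the limit, after quantile normalization. The values of GDF15 and JDP2 in 1321N1 were also negative, but both genes passed the filter there only through groups where they were higher. These groups were HC and EGCG+HC for GDF15 and the single treatments for JDP2, so no direction is drawn from those calls. In 1321N1 neither single response of JDP2 was called and its combination response was not tested, and neither was the EGCG response of GDF15, since those means were below 1 RPKM. For NUPR1 the single responses summed to 4.08 in 1321N1 and 4.61 in LN18, and the measured combination responses were 1.89 and 2.73, differences of -2.19±0.14 and -1.88±0.16 (adjusted p 5.15e-07 and 9.05e-07). GDF15 differed by -1.22±0.18 and -1.84±0.16 (adjusted p 0.000185 and 9.42e-07), and JDP2 by -0.79±0.11 and -0.74±0.08 (adjusted p 0.000111 and 9.21e-06). With a pseudocount of 0.1 RPKM the 1321N1 value of JDP2 was -1.35 and that of GDF15 -1.73. VLDLR fell short by -1.42±0.08 in LN18 (adjusted p 2.63e-08) and by -0.47 in 1321N1, under the limit, or -0.70 and past it with a pseudocount of 0.1 RPKM. In the other direction, CEBPG exceeded its sum in LN18 by 0.62±0.04 (adjusted p 7.15e-08), with -0.07 in 1321N1 (adjusted p 0.256). STC1 exceeded it in 1321N1 by 0.61±0.12 (adjusted p 0.00124), where the single responses were of opposite sign. Both of these values are close to the limit. That of CEBPG fell to 0.54 after rescaling without mitochondrial genes and after quantile normalization, and that of STC1 to between 0.55 and 0.58 without control replicate 2 or 3, EGCG replicate 1, HC replicate 1 or EGCG+HC replicate 1. STC2 stayed within 1.5-fold of the sum, at -0.52 in 1321N1 and 0.19 in LN18.

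In all, 3 members were below and 1 above the sum in 1321N1 (12.8% and 10.3% of all genes) and 4 below and 1 above in LN18 (23.1% and 14.5%). The 3 in 1321N1 include GDF15 and JDP2, which passed the filter only through groups where they were higher, and NUPR1 remains without them. The members' median difference was -0.52 and -0.74, beside -0.09 and -0.13 for all tested genes. DDIT3 itself was below the sum in 1321N1, by -1.19±0.14 (adjusted p 2.76e-05), and above it in LN18, by 1.29±0.11 (adjusted p 7.66e-07). ATF4 was below by -1.04 in 1321N1 and at 0.03 in LN18. In LN18 GDF15, NUPR1, VLDLR and JDP2 thus lay below the sum, whereas CEBPG, like DDIT3, lay above it. The calls of JDP2 and CEBPG there were lost after quantile normalization.

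**Figure D4:**
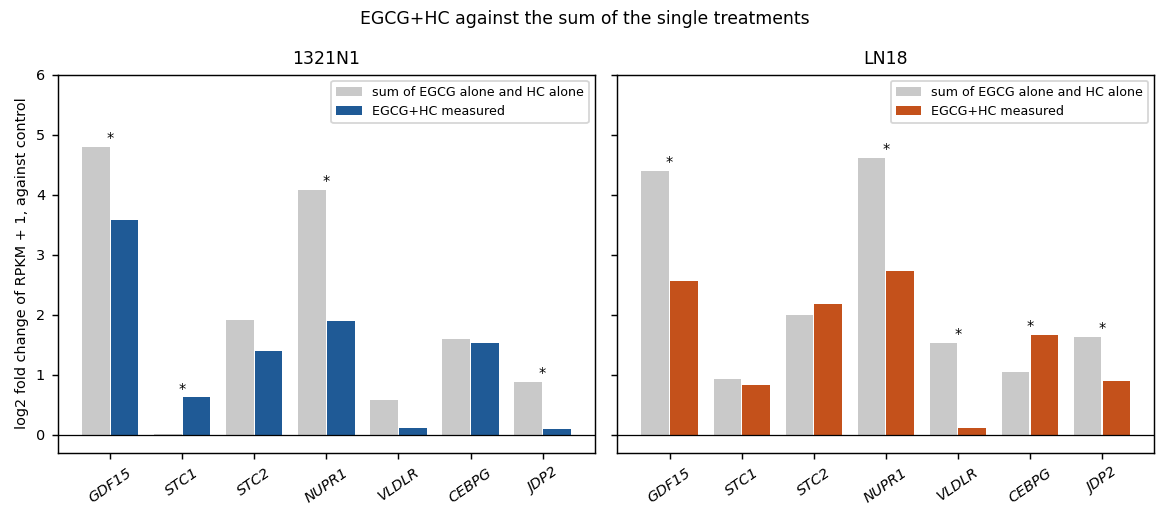
Measured log2 fold change with EGCG+HC (coloured bars) beside the sum of the log2 fold changes with EGCG alone and HC alone (grey bars) for the 7 genes in 1321N1 and LN18, against control. Asterisks mark genes whose difference from the sum passed the call. NUPR1 reaches 1.89 of a sum of 4.08 in 1321N1, and CEBPG in LN18 reaches 1.66 against a sum of 1.04.

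Untreated LN18 held more STC1, STC2 and VLDLR than untreated 1321N1. STC1 was higher by 2.05±0.07, STC2 by 1.73±0.04 and VLDLR by 1.09±0.08 on the log2 scale, and the values of GDF15 and JDP2 were 1.52±0.13 and 1.86±0.09 (5 of 7 members called, against 21.9% of all genes; limma, adjusted p 2.4e-05 or less). GDF15 and JDP2 averaged 0.322 and 0.885 RPKM in 1321N1 controls and passed the filter only through LN18, where they were higher, so that their calls are no support for a difference. With a pseudocount of 0.1 RPKM their values were 2.78 and 2.61. As ratios of mean RPKM these were 8.77 for GDF15, 4.47 for STC1, 3.55 for STC2, 2.90 for VLDLR and 6.61 for JDP2. CEBPG, at 1.52 times, was just under the limit on the log2 scale (0.57, or 0.60 and past it with a pseudocount of 0.1), and NUPR1 was at -0.48 (adjusted p 0.0143), or -0.63 and past the limit without LN18 control replicate 1. ATF4 and DDIT3 were also higher in LN18, by 0.95 and 1.30.

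Responses to treatment differed between the lines for 6 of the 7 genes in at least 1 treatment, by a line by treatment interaction over 12 libraries. For JDP2, 1 of the 6, the only such call was with EGCG+HC, where it passed the filter only through LN18, and 5 remain without it. GDF15, another of the 6, has the limits given below, and STC1, STC2, NUPR1 and VLDLR remain without both. Of the 13015 genes tested in all 3 of these interactions, 56.1% were called in at least 1. The signed difference in the EGCG response, LN18 minus 1321N1, was 1.14±0.22 for GDF15 and was also above 0 for NUPR1 (0.77±0.19) and, as the absence of a fall, STC1 (0.59±0.09), 3 of 7 members against 5.59% of all genes (adjusted p 0.00116, 0.00617 and 0.000197). GDF15 averaged under 1 RPKM in the 1321N1 libraries of this comparison and passed the filter only through LN18. Its value was 0.94 (adjusted p 0.0853), no longer called, with a pseudocount of 0.1 RPKM, so no direction is drawn from it. The STC1 value fell to 0.55 or 0.56, below the limit, without 1321N1 control replicate 2 or 3, 1321N1 EGCG replicate 1 or LN18 control replicate 1, and to 0.57 after rescaling without mitochondrial genes. For JDP2 it was 0.55, and 0.62 or 0.61, past the limit, without 1321N1 control replicate 2 or LN18 control replicate 1. The HC response of VLDLR was larger in LN18, by 0.73±0.09 (1 of 7, against 19.6% of all genes higher, adjusted p 2.75e-05). The value for GDF15 was -1.53±0.17 (1 of 7, against 12.6% of all genes lower, adjusted p 1.08e-05). It rests on the change of GDF15 from 1321N1 controls under 1 RPKM, whose call is no support for a rise. No direction is thus drawn from the GDF15 value. GDF15 levels with HC overlapped between the lines, whereas the control levels did not.

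The EGCG+HC response was larger in LN18 for STC2 (0.79±0.04) and NUPR1 (0.83±0.16), with adjusted p of 4.23e-08 and 0.000771. The value for JDP2 was 0.79±0.11 (adjusted p 4.1e-05), which makes 3 of 7 members called against 15.0% of all genes, but JDP2 averaged under 1 RPKM in the 1321N1 libraries of this comparison and passed the filter only through LN18, so no direction is drawn from it. The value for GDF15 was -1.01±0.15 (18.2% of all genes were lower, adjusted p 9.95e-05). It rests on the same 1321N1 controls as with HC, so no direction is drawn from it either. CEBPG (0.14, 95% interval 0.06 to 0.22) and VLDLR (0.01, 95% interval -0.19 to 0.20) differed by less than 1.5-fold. DDIT3 had a smaller response in LN18 with HC (-3.04±0.12) and with EGCG+HC (-0.64±0.08), and ATF4 with HC (-1.04±0.07). CEBPG was the member with no called line difference in any of the 3 treatments.

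How the 7 genes moved together was described over the 24 libraries, after each line's mean was removed from log2(RPKM + 1). STC2 and CEBPG had the highest Pearson r of any pair over both lines (0.95), followed by GDF15 with STC2 (0.90), NUPR1 with JDP2 (0.84) and GDF15 with STC1 (0.83). VLDLR had r of 0.10 with CEBPG and 0.21 with STC2, and STC1 had 0.02 with JDP2. Within 1321N1 the highest was GDF15 with STC2 (1.0, rounded), a pair with r of 0.86 in LN18. STC2 and CEBPG had r of 0.92 in 1321N1 and 0.98 in LN18, and NUPR1 and JDP2 0.66 and 0.95. VLDLR and JDP2 had r of 0.85 in 1321N1 and 0.31 in LN18. The libraries share treatments and the points fall into 4 treatment groups per line, so these values are descriptions.

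**Figure D5:**
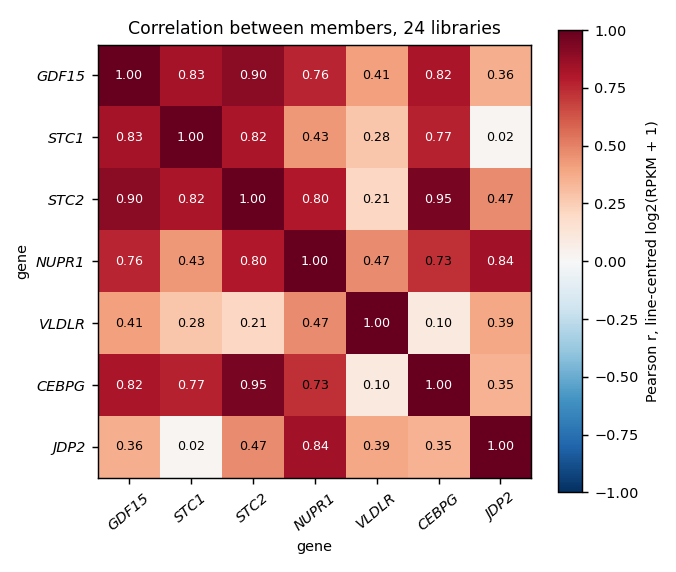
Pearson r between the 7 genes over 24 libraries, on log2(RPKM + 1) with each line's mean removed (colour and printed value). STC2, CEBPG, GDF15 and STC1 form a block with r between 0.77 and 0.95, NUPR1 and JDP2 have 0.84, and VLDLR has 0.47 or less with every other member.

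Among 12160 genes averaging 1 RPKM or more in each line, the nearest patterns by the same measure were YPEL5 (0.988), AKR1C2 (0.986) and CDKN1A (0.983) for GDF15. For STC1 they were LIF (0.970), TMED10 (0.940) and STK17A (0.934), LIF being a secreted cytokine. STC2 had LURAP1L (0.991), XBP1 (0.986) and SERP1 (0.982), XBP1 encoding a transcription factor of the unfolded protein response and SERP1 a protein of the endoplasmic reticulum. CEBPG had JMY (0.986), TANK (0.985) and LINC00662 (0.983), and NUPR1 had SLC39A14 (0.943), SAV1 (0.931) and BET1 (0.931). VLDLR had FAM117B (0.965), GRB10 (0.952) and CDK19 (0.916), and JDP2 had ITM2C (0.918), ARMCX3 (0.917) and ZFYVE9 (0.908). Each r is over 24 libraries.

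Other genes of the pathway were counted in the same fits. Of 15 tested genes on a list of ATF4, CHOP and their feedback genes, 14 were higher and 1 lower with EGCG+HC in 1321N1 (median log2 fold change 1.94), and 12 were higher and 1 lower in LN18 (1.87). ATF3, a stress-induced partner of the family, rose by 5.10±0.05 and 3.0±0.05, and PPP1R15A, the phosphatase subunit that reverses eIF2 phosphorylation, by 4.73±0.05 and 3.0±0.07. With HC 13 of 15 were higher in 1321N1 and 12 of 15 in LN18, and with EGCG 6 of 15 and 11 of 15. Of all tested genes, 18.8% and 9.48% were higher with HC in 1321N1 and LN18, and 3.14% and 9.11% with EGCG. Of the ATF4 targets in amino acid supply, 9 of 20 tested rose with EGCG+HC in 1321N1 (median 0.55), and 9 of 19 rose and 2 fell in LN18 (median 0.46). CTH, an enzyme of cysteine synthesis, rose by 3.48±0.04 and 3.11±0.07, whereas CBS, the enzyme before it, fell by 1.39 in LN18. Of the kinases and factors around eIF2, 3 of 15 were higher and 1 lower in 1321N1, and 1 higher and 5 lower in LN18, with medians of -0.30 and -0.26. EIF2AK3, the kinase PERK, rose in both (2.15±0.04 and 2.0±0.05). EIF2B1, a subunit of the eIF2 exchange factor, was lower in 1321N1 (-0.63), as were the subunits EIF2B3 (-1.18) and EIF2B4 (-1.06) and the amino acid sensing kinase EIF2AK4 (-0.90) in LN18.

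The families closest to single members gave mixed counts with EGCG+HC. Around CEBPG, 2 of 2 tested C/EBP genes were higher in 1321N1 and 2 of 3 in LN18, with 1 lower there. CEBPB rose by 1.42±0.09 and 1.19±0.08, and CEBPD fell by 0.89 in LN18. Around JDP2, 9 of 14 AP-1 and ATF family genes were higher and 1 lower in 1321N1, and 7 of 12 were higher in LN18. FOS, an AP-1 subunit, was at 0.203±0.0755 RPKM in 1321N1 controls and 14.7±0.739 RPKM with EGCG+HC, and in LN18 at 0.514±0.131 and 3.75±0.0988 RPKM. FOS in both lines and FOSB in 1321N1 (0.017 RPKM in control) passed the filter only through the treated libraries. They are among the higher genes counted, but could only be called higher.

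Around GDF15, 3 of 10 TGF-beta family ligands and partners were higher and 2 lower in 1321N1, and 3 of 11 were higher and 3 lower in LN18. The higher genes include GDF9 and INHBE in 1321N1 and GDF9 and BMP2 in LN18. These averaged under 1 RPKM in control and passed the filter only through the treated libraries, so they could only be called higher. INHBE, an inhibin subunit, rose by 3.09±0.11 in LN18, where TGFB2 fell by 2.91. In 1321N1 the INHBE value was 1.44±0.08, from a mean of 0.779 RPKM in control to 3.81 with EGCG+HC. It passed the filter there only through the treated libraries, so no direction is drawn from that value. Of other secreted stress hormones and cytokines, 7 of 10 were higher in 1321N1, and 5 of 9 were higher and 1 lower in LN18. IL8, a neutrophil chemokine, rose by 3.95±0.17 in LN18, and ADM2, a peptide hormone, by 2.10±0.07 there. In 1321N1 the IL8 value was 2.69±0.06, from a mean of 0.310 RPKM in control to 7.47 with EGCG+HC. The higher genes of 1321N1 include IL8 and TNFAIP6 (0.629 RPKM in control). Both passed the filter only through the treated libraries, so no direction is drawn from their calls. GDF15 is also known as a target of p53, and NDRG1 and VEGFA as targets of the hypoxia factors. Of the p53 targets, 9 of 19 were higher and 2 lower in 1321N1, and 6 of 18 were higher and 3 lower in LN18, with CDKN1A, the cell cycle inhibitor p21, at 2.43±0.05 and 1.63±0.05. Of the hypoxia targets, 7 of 20 were higher and 2 lower in 1321N1, and 4 of 19 were higher and 1 lower in LN18, with NDRG1 at 2.83±0.07 and 1.18±0.07. The higher genes of 1321N1 include ANGPTL4, at 0.467 RPKM in control, which passed the filter only through the treated libraries. In this comparison 23.1% of all tested genes were higher and 18.0% lower in 1321N1, and 24.1% were higher and 22.2% lower in LN18, with median log2 fold changes of -0.01 and 0.01. ATF3, CEBPB, SESN2 and VEGFA stand on more than 1 of these lists.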

How the data were processed

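The authors trimmed paired-end reads of unstranded TruSeq libraries, mapped them to GRCh37/hg19 and deposited RPKM per gene in 1 sheet per line and treatment, made with the CLC Genomics Workbench. Headers name trimmed un-mapped reads as the input. No counts were used here. Each deposited RPKM value was taken as log2(RPKM + 1). Genes averaging 1 RPKM or more over the fitted libraries were tested with limma 3.58.1 (trend, R 4.3.3), with Benjamini-Hochberg adjustment over all of them, in 18 comparisons. Pair comparisons used 6 libraries, and interactions 12. A call needed an adjusted p of 0.05 or less and a change of 1.5-fold or more. The fit was tested on simulated data. Over the 18 comparisons 32% to 56% of simulated 1.5-fold changes were called in the right direction, and 92% to 100% of 2-fold changes. Beyond the 7 genes, ATF4 and DDIT3, the text names up to 4 called genes a list with the largest EGCG+HC change, and the 3 nearest genes by correlation. The members and the gene lists were chosen with earlier results of these data known, and a list around VLDLR is not reported here. Alternatives covered the pseudocount, filter, scaling (quantile normalization, or rescaling without mitochondrial genes), test, block and each library left out. Loci come from GENCODE lifted to GRCh37. Depth was read from whole-read steps within 0.1 of a read, for 89.6% to 95.5% of low values in 22 libraries and at most 35.6% in the other 2, and limits how well low genes can be read. Replicates are independent tests of 1 line, so p-values measure their spread only.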

Additional observations from a re-analysis of the deposited data

Results flagged for a closer look

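The responses of 6 of the 7 genes differed between LN18 and 1321N1 by the line by treatment interaction (limma on log2(RPKM + 1), 12 libraries) in at least 1 treatment, as did those of 56.1% of all 13015 genes tested in each, and the signed values are LN18 minus 1321N1. For EGCG these were 1.14 for GDF15, 0.59 for STC1 and 0.77 for NUPR1. For HC they were -1.53 for GDF15 and 0.73 for VLDLR, at HC doses of 10 µg/ml in LN18 and 20 µg/ml in 1321N1. For EGCG+HC they were -1.01 for GDF15, 0.79 for STC2, 0.83 for NUPR1 and 0.79 for JDP2. The 1321N1 control libraries held 0.254 to 0.398 RPKM of GDF15, and with a pseudocount of 0.1 RPKM its values were 0.94, -2.79 and -2.25. The first of these was not called (limma, adjusted p 0.0853), and with EGCG GDF15 passed the filter on low values only through LN18. The same holds for JDP2 with EGCG+HC, its only call here, without which the count is 5. The HC and EGCG+HC values of GDF15 rest on the 1321N1 controls given above, so no direction is drawn from them.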

How the results depend on the processing

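Counts of members called (of 7) were recomputed under each alternative. For the fold limit, the filter and quantile normalization only counts that changed by more than 1.5-fold are given. Smaller changes under these settings are left out. Without a limit on the fold change they were 6 for EGCG against control and for EGCG+HC against HC in 1321N1, 7 for EGCG+HC against EGCG, EGCG+HC against HC and HC against EGCG in LN18, and 6 and 5 for the line difference in the EGCG and HC responses. With Bonferroni adjustment they were 0 for EGCG against control and EGCG+HC against HC in 1321N1, 1 for the sum in 1321N1, 0, 1 and 1 for the line differences with EGCG, HC and EGCG+HC, 4 for HC, EGCG+HC and HC against EGCG in 1321N1 and for the lines' controls, and 3 and 6 for EGCG and HC in LN18. The other 6 counts did not change. With a filter of 10 RPKM, which tests fewer genes, they were 1 and 2 for EGCG in 1321N1 and LN18, 3 for the sum in LN18, 2 for the lines' controls, and 1 and 2 for the line differences with HC and EGCG+HC. Quantile normalization gave 2 for EGCG+HC against HC in 1321N1 and 3 for the sum in LN18, where CEBPG (0.54) and JDP2 (-0.55) fell below the limit, and it put JDP2 with HC in LN18 at 0.47.

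Testing without a filter, without the trend or over all libraries of the line changed no call of a member. Values that changed sign were all uncalled and near 0. VLDLR with EGCG+HC in 1321N1 was -0.11 and the LN18 sum of STC2 -0.08 after quantile normalization, and the HC line difference of JDP2 was -0.03 with a pseudocount of 0.1. The EGCG+HC line difference of VLDLR was -0.03 and -0.01 with pseudocounts of 0.1 and 0.5, -0.04 without mitochondrial genes, and -0.05 to 0.08 over the leave-one-out fits. STC1 for EGCG+HC against HC in 1321N1 was 0.06 and 0.02 without HC replicate 2 and EGCG+HC replicate 3, in a leave-one-out range of -0.09 to 0.06.

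Leaving out each library gave counts of 4 to 5 for HC and for EGCG+HC in 1321N1, 6 to 7 for HC in LN18, 3 to 4 for EGCG+HC against HC and HC against EGCG in LN18 and for the sum in 1321N1, 5 to 6 for the lines' controls and 2 to 3 for the EGCG line difference. The other 10 counts did not change. Replicate numbers did not pair the libraries, since no 2 groups of a line had all 3 same-number correlations over 0.1. With the number as a replicate block the counts of calls were those given, for example 5 for EGCG+HC in 1321N1 and 6 in LN18, and no call of a member changed.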
